A study of Mus musculus with 6 samples.

Results

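RNAseq of mouse pancreatic fibroblasts was examined for the genes of axon guidance, the families of ligands and receptors that steer growing nerve fibres. The genes were taken by name, as semaphorins, plexins, neuropilins, ephrins, Eph receptors, Slits, Robos, netrins, Unc5 receptors and teneurins. By this rule 52 of the 14831 genes with counts belong to the set. They are 16 semaphorins, 10 plexins and neuropilins, 8 ephrins, 9 Eph receptors, 3 Slits and Robos, 4 netrins and Unc5 receptors and 2 teneurins.

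The 6 libraries come from immortalized pancreatic fibroblasts of mixed strain, 3 with the genotype label WT and 3 with the label Gli2-/-;Gli3-/-, here called labelled WT and labelled KO. Each library is from its own culture well, grown to confluence in medium with calf serum and no further treatment named. The study's methods derive such lines from the pancreas of adult mice and delete floxed genes with an adenovirus that carries Cre. Control lines received a GFP adenovirus and a lentivirus for dsRed, and knockout lines a GFP adenovirus and the Cre adenovirus. Infected cells were sorted by flow cytometry, and by the study's methods their recombination was checked with qPCR and western blot. The p values measure the spread between wells and not between independently made lines, and effects of line and genotype cannot be told apart.

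Semaphorins signal through plexins, in the secreted class 3 mostly with a neuropilin as co-receptor. Ephrins are ligands tethered to the cell surface that activate Eph receptor tyrosine kinases on the neighbouring cell, while Slits are secreted and bind Robos. Netrins act through Dcc, neogenin and the Unc5 receptors, and teneurins are large transmembrane proteins that bind latrophilins across cell contacts. Outside the nervous system the same families are known for roles in vessels, epithelia and mesenchyme, where they affect cell spreading, repulsion and adhesion.

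The libraries hold between 31728420 and 41035931 counts on genes. Summed counts of the targeted genes ran opposite to the labels. Gli2 had 25.8, 28.2 and 27.2 CPM, counts scaled to a common library size, in the labelled WT libraries and 54.6, 55.6 and 58.3 CPM in the labelled KO libraries. Gli3 had 12.5, 12.4 and 12.5 CPM against 40.5, 39.3 and 42.5 CPM. Both were thus higher in every library labelled KO, and counts summed over a gene do not resolve the deleted exons. Gli1, a transcriptional target of Hedgehog signaling, had 40, 50 and 37 counts in the labelled WT libraries and 4, 10 and 13 in the labelled KO libraries. Ptch1, another such target, had 225, 236 and 245 CPM against 77.2, 82.0 and 86.4 CPM, so both targets were lower under the KO label. All directions below refer to the labels as given.

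Genes were tested with edgeR's quasi-likelihood test across the whole table, with Benjamini-Hochberg adjustment over the 14289 genes that passed the expression filter. A gene was called where the adjusted p was under 0.05 and the change reached 1.5-fold. Log2 fold changes are given as labelled KO minus labelled WT. Levels of different genes are compared only as CPM per kilobase of exon, and other CPM values are not scaled by length.

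Of the 51 guidance genes tested, 25 were called, or 49% of them, against 17.7% of all genes tested. Higher in the labelled KO libraries were 17 of them, against 11.6% of all genes, and 8 were lower, against 6.1% of all genes. The called share was 46.7% in semaphorins, 40% in plexins and neuropilins, 25% in ephrins and 55.6% in Eph receptors. It was 66.7% in Slits and Robos, 75% in netrins and Unc5 receptors and 100% in teneurins, with 3, 4 and 2 genes tested. The median log2 fold change of the 51 was 0.20 (median size 0.55), compared with 0.0020 (median size 0.22) over all genes. Without the fold limit 42 of the 51 passed the adjusted p, against 58.7% of all genes. The libraries of the groups did not overlap in CPM for 44 of the 51, against 64.2% of all genes. The remaining gene, Sema4f, was not tested because of low counts. It had no count in any library labelled WT. With 7, 13 and 10 counts in the labelled KO libraries it was at least 2.91-fold higher there, when each library labelled WT is set to a floor of 3 counts.

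**Figure D1:**
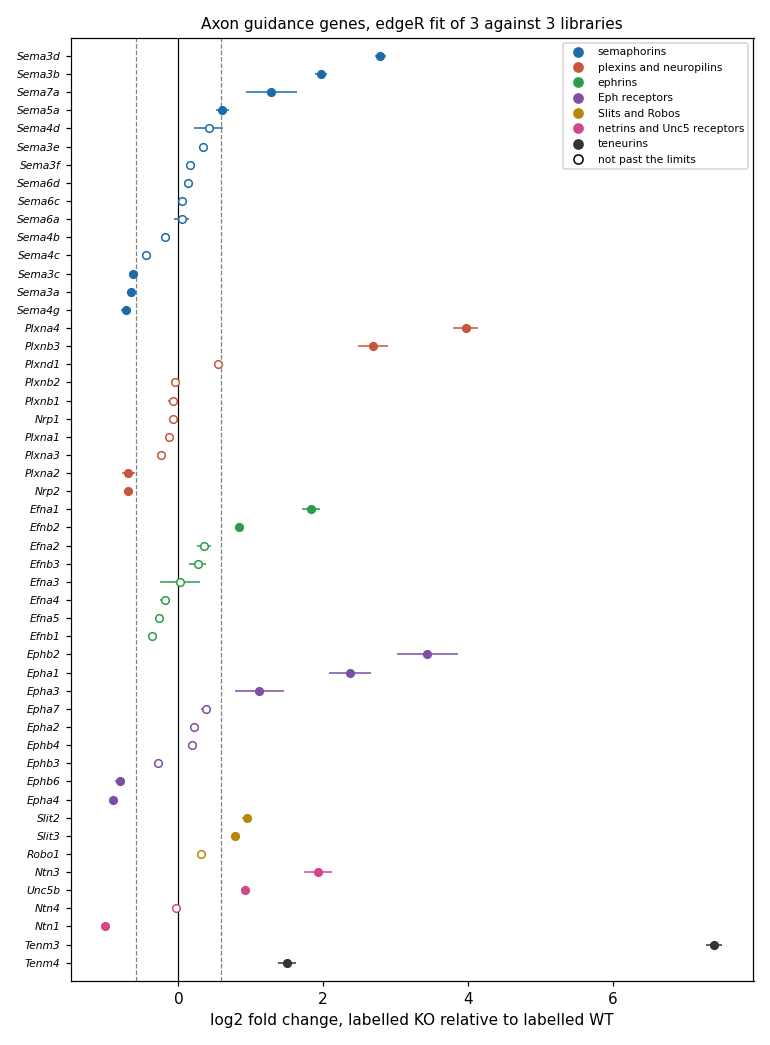
Log2 fold change of the 51 tested guidance genes, labelled KO relative to labelled WT, from the edgeR fit of 3 libraries against 3. Points are estimates, bars are 1 standard error, filled points passed both limits and dashed lines mark 1.5-fold, and Tenm3 at 7.41 lies far to the right of all others.

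The genotype labels name the transcription factors GLI2 and GLI3, which bind sequences with the core CCACCC. Promoter windows from 250 bases before to 50 bases after each RefSeq start (GRCm38.p6) were found for 45 of the 52 genes, 56 windows in all. The full site GACCACCCA was in 0 of these windows on either strand, against 0.253% of all 32841 windows. A site this rare would mostly be missing from 56 windows in any case, so the 0 cannot show depletion. The shorter CCACCCA was in 7.14% of the guidance windows and 9.31% of all windows. The core CCACCC, which both longer sites hold, was in 51.8% of the guidance windows and in 31.5% of all windows. The guidance windows were also richer in G and C, with a median of 64.5% against 52.7%, and held a median of 20 CpG against 7. A match of letters is no evidence of binding, and the part of base composition in these shares was not tested.

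A window is printed for each of the 3 genes on which the results below turn most, with the core CCACCC or its complement GGGTGG in capitals. They are those of the most abundant semaphorin, of the semaphorin with the largest rise and of the guidance gene with the largest rise. Sema3c (chr5:17574566-17574865, plus strand) held 3 cores, Sema3d (chr5:12382916-12383215, plus strand) held 1, and Tenm3 (chr8:48674641-48674940, minus strand) held 0. The Sema3c and Tenm3 windows lie inside the longer spans that GENCODE M21 gives these genes, so neither is at the outermost start of its gene.
Sema3c: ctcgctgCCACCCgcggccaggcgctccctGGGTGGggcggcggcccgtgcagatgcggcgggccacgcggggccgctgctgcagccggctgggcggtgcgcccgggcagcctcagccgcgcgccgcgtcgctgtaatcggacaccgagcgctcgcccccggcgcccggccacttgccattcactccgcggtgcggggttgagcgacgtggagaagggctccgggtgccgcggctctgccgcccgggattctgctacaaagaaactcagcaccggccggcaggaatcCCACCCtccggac
Sema3d: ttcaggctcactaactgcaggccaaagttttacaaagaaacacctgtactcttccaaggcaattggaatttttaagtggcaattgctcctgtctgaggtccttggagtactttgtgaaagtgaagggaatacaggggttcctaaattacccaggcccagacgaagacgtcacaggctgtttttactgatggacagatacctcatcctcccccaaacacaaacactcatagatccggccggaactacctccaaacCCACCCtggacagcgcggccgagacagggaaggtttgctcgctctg
Tenm3: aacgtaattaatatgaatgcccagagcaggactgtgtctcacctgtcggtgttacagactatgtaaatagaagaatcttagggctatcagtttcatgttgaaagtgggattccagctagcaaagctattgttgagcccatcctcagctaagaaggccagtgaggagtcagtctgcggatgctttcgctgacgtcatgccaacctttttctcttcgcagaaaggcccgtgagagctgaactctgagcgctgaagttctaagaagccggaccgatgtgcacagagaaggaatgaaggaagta

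Teneurins showed the largest change of the 7 families, with a family sum of 0.180 ± 0.0228 CPM per kilobase in the labelled WT libraries and 7.48 ± 0.560 in the labelled KO libraries (SD, n = 3 each). Tenm3, a homophilic adhesion receptor that guides the wiring of neural circuits, had 11, 12 and 18 counts in the labelled WT libraries and 2434, 2925 and 2594 in the labelled KO libraries. In CPM these are 0.351, 0.358 and 0.564 against 68.7, 70.2 and 78.6. The gene was close to undetected in every library labelled WT and well above it in every library labelled KO. Its log2 fold change was 7.41 (standard error, SE, 0.11, adjusted p = 7.24e-14), or 170-fold. Tenm4, its paralog, had 2.52, 3.25 and 2.98 CPM against 7.12, 8.61 and 9.15 CPM. Tenm4 was also higher in every library labelled KO, with a log2 fold change of 1.503 (SE 0.12, adjusted p = 4.24e-07). Per kilobase, Tenm4 gave 77.0% of the teneurin level in the labelled WT libraries, and Tenm3 gave 94.7% in the labelled KO libraries. Tenm1 and Tenm2 were not analysed here.

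Semaphorins did not move as one, with 4 of 15 tested called higher and 3 lower. The largest rise was that of Sema3d, a secreted class 3 semaphorin known from neural crest and vascular patterning. It had 4.56, 4.78 and 4.32 CPM in the labelled WT libraries and 28.8, 33.3 and 32.5 CPM in the labelled KO libraries. Sema3d was thus far higher in each library labelled KO, by 2.79 on the log2 scale (SE 0.08, adjusted p = 1.46e-11). Sema3b, another secreted member, had 5.68, 5.22 and 4.67 CPM against 19.8, 19.2 and 22.1 CPM. It rose by 1.97 on the log2 scale (SE 0.09, adjusted p = 8.81e-10), with no overlap between groups. Sema5a, a transmembrane member with thrombospondin repeats, had 8.81, 8.99 and 10.1 CPM against 15.6, 12.3 and 14.7 CPM. The groups were apart here too, but its log2 fold change of 0.61 (SE 0.09, adjusted p = 1.07e-04) lay just past the fold limit. Without WT replicate 1, WT replicate 2, KO replicate 1 or KO replicate 3 it was between 0.53 and 0.58 and was no longer called. Sema7a, the member anchored by a lipid, was called at 1.28 on low counts, with 12, 6 and 6 counts against 28, 21 and 18.

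Of the semaphorins called, 3 were lower in the labelled KO libraries, and they include the most abundant one. Sema3c, a secreted ligand that uses both neuropilins, had 1351, 1416 and 1459 CPM in the labelled WT libraries and 885, 925 and 921 CPM in the labelled KO libraries. The groups did not overlap, and the log2 fold change was -0.63 (SE 0.03, adjusted p = 6.35e-09). Sema3a, the founding repulsive ligand of the class, had 470, 491 and 504 CPM against 302, 317 and 316 CPM. On the log2 scale it fell by 0.65 (SE 0.03, adjusted p = 5.21e-09), again with every library labelled KO below every library labelled WT. Sema4g, a transmembrane member, was lower as well, with 12.03, 11.8 and 11.7 CPM against 7.03, 7.44 and 6.998 CPM and a log2 fold change of -0.72 (SE 0.07, adjusted p = 1.37e-06). With upper-quartile scaling Sema3c was at -0.57 and was no longer called.

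The other 8 tested semaphorins were not called. Sema4c (-0.45), Sema3e (0.34), Sema4b (-0.18) and Sema3f (0.16) passed the adjusted p but not the fold limit, and Sema4d (0.42), Sema6d (0.13), Sema6c (0.06) and Sema6a (0.04) passed neither. Summed per kilobase, the semaphorins were at 326 ± 10.5 CPM per kilobase in the labelled WT libraries and 255 ± 3.94 in the labelled KO libraries (SD, n = 3 each), which made them the largest family sum in the labelled WT libraries and the second, after the plexins and neuropilins, in the labelled KO libraries. Sema3c alone gave 60.5% and 49.9% of this sum. Sema3f was second at 15.7% and 22.5%, and Sema3a next at 10.8% and 8.79%. Sema3d and Sema3b rose from a small base, at 0.162% and 0.333% of the family in the labelled WT libraries and 1.44% and 1.67% in the labelled KO libraries.

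The plexins and neuropilins, the receptors of the semaphorins, had 4 of 10 members called, 2 in each direction, and their sum was 289 ± 4.76 and 273 ± 11.98 CPM per kilobase (SD, n = 3 each). Plxna4, which works with neuropilins in the response to class 3 semaphorins, had 14, 11 and 13 counts in the labelled WT libraries and 215, 233 and 232 in the labelled KO libraries. Every library labelled KO was far above the others, with a log2 fold change of 3.97 (SE 0.18, adjusted p = 1.30e-09). Plxnb3, a receptor for Sema5a, had 13, 17 and 23 counts against 144, 129 and 117, and did not overlap between groups. It rose by 2.69 on the log2 scale (SE 0.20, adjusted p = 1.79e-07).

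Nrp2, a co-receptor of Sema3c and Sema3f, was lower, with 133, 129 and 141 CPM in the labelled WT libraries and 82.8, 77.3 and 87.5 CPM in the labelled KO libraries. The log2 fold change was -0.70 (SE 0.05, adjusted p = 5.45e-08), and the groups were well apart. Plxna2 had 15.1, 15.0 and 16.5 CPM against 8.42, 9.36 and 11.1 CPM, also without overlap. It fell by 0.69 on that scale (SE 0.09, adjusted p = 2.48e-05). Nrp1, the co-receptor that Sema3a needs, was near-level with 191, 187 and 193 CPM against 183, 176 and 182 CPM, a log2 fold change of -0.08 (95% confidence interval -0.15 to -0.01).

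The abundant plexins were among those not called. Plxnb2, a receptor of class 4 semaphorins, gave 50.02% of the receptor level per kilobase in the labelled WT libraries and 51.3% in the labelled KO libraries. It had 1124, 1101 and 1127 CPM against 1057, 1068 and 1117 CPM, with overlap between groups and a log2 fold change of -0.05 (95% confidence interval -0.11 to 0.02). Plxna1 was second at 33.7% and 32.7% of the family. Plxnd1, the receptor of Sema3e, lay just below the fold limit at 0.55 and was called under upper-quartile scaling, at 0.60. Plxna3 (-0.23), Plxna1 (-0.13) and Plxnb1 (-0.07) were smaller still. Both called rises were therefore in receptors of low level, with Plxna4 at 0.162% and Plxnb3 at 0.201% of the family in the labelled KO libraries.

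Ephrins had the smallest share of calls, 2 of 8 or 25%, against 17.7% of all genes tested, and both were higher. Efna1, the ligand anchored by a lipid that binds Epha2 and Epha1, had 1.21, 1.28 and 1.53 CPM in the labelled WT libraries and 4.97, 4.70 and 4.70 CPM in the labelled KO libraries. It did not overlap between groups, with a log2 fold change of 1.83 (SE 0.13, adjusted p = 8.62e-08). Efnb2, the transmembrane ligand of Ephb4 that marks arterial endothelium, had 33.0, 31.4 and 30.6 CPM against 59.9, 55.2 and 54.4 CPM. It too was higher in each library labelled KO, at 0.83 (SE 0.05, adjusted p = 1.18e-08). Efna5, the most abundant ephrin per kilobase, had 95.7, 96.1 and 99.2 CPM against 80.3, 77.2 and 84.4 CPM. Its groups were apart, but its log2 fold change of -0.27 (SE 0.04, adjusted p = 5.00e-05) did not reach the fold limit. Efnb1 (-0.36), Efna2 (0.36) and Efna4 (-0.18) likewise passed the adjusted p but not the fold limit, and Efnb3 (0.27) and Efna3 (0.02) passed neither.

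Eph receptors, the receptors of the ephrins, had 5 of 9 members called, 3 higher and 2 lower. The members called higher had at most 13 counts in each library labelled WT. Ephb2 had 4, 1 and 1 counts there and 25, 30 and 23 in the labelled KO libraries, a log2 fold change of 3.44 (SE 0.42, adjusted p = 1.57e-05). The single library with 4 counts sets the size, and without WT replicate 1 the log2 fold change was 4.38. Epha1 had 4, 7 and 7 counts against 39, 41 and 28, at 2.38 (SE 0.29, adjusted p = 1.54e-05). Epha3 had 4, 12 and 13 counts against 21, 26 and 25, at 1.12 (SE 0.34, adjusted p = 0.0123), and all 3 kept their groups apart.

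The Eph receptors called lower were expressed well above the floor. Epha4, which can bind ephrins of both classes, had 98.9, 104 and 107 CPM in the labelled WT libraries and 53.1, 55.0 and 57.2 CPM in the labelled KO libraries. The log2 fold change was -0.91 (SE 0.04, adjusted p = 1.13e-09), and the groups were far apart. Ephb6, a member whose kinase domain lacks activity, had 35.1, 35.9 and 32.0 CPM against 20.4, 18.0 and 20.3 CPM, at -0.81 (SE 0.06, adjusted p = 1.59e-07). Epha7 (0.38), Ephb3 (-0.28), Epha2 (0.22) and Ephb4 (0.20) passed the adjusted p without reaching the fold limit.

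Per kilobase, the Eph receptors changed order at the top. Ephb3 was first in the labelled WT libraries at 30.2 ± 0.327 CPM per kilobase and Epha2 second at 23.0 ± 2.14. In the libraries labelled KO, Epha2 was at 26.7 ± 1.00 and Ephb3 at 24.9 ± 0.259 (SD, n = 3 each). Ephb3 had 199, 203 and 200 CPM against 164, 166 and 167 CPM, and Epha2 had 118, 105 and 98.5 CPM against 130, 122 and 122 CPM. Neither change reached 1.5-fold. The members called higher, Epha1, Epha3 and Ephb2, were the 3 smallest in both groups, at 0.290%, 0.0883% and 0.0655% of the family in the labelled KO libraries.

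Slits were both called higher. Slit3, the more abundant Slit, had 411, 456 and 456 CPM in the labelled WT libraries and 722, 736 and 823 CPM in the labelled KO libraries. Its log2 fold change was 0.79 (SE 0.05, adjusted p = 4.86e-08). Slit2, which acts as a repellent through Robo1, had 39.1, 45.1 and 42.8 CPM against 75.8, 78.2 and 90.7 CPM, at 0.94 (SE 0.07, adjusted p = 9.94e-08). In both genes the lowest library labelled KO lay above the highest library labelled WT. Robo1, their receptor, had 35.0, 35.5 and 37.2 CPM against 44.1, 43.0 and 47.5 CPM, and its log2 fold change of 0.32 passed the adjusted p but not the fold limit. Slit3 gave 94.98% of the family's level per kilobase in the labelled WT libraries and 95.5% in the labelled KO libraries, so the family sum of 76.5 ± 4.44 and 131 ± 9.47 CPM per kilobase (SD, n = 3 each) is mostly Slit3. Robo2 and Robo4 were not analysed here.

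Among netrins and Unc5 receptors, 3 of 4 were called, 2 higher and 1 lower, with the ligand Ntn1 and the receptor Unc5b in opposite directions. Ntn1, the secreted netrin that attracts or repels depending on the receptor, had 64.7, 58.0 and 62.4 CPM in the labelled WT libraries and 30.2, 31.6 and 30.1 CPM in the labelled KO libraries. Its log2 fold change was -1.01 (SE 0.05, adjusted p = 1.71e-09), the only fall of a guidance gene past 2-fold. Unc5b, a repulsive netrin receptor, had 161, 159 and 158 CPM against 299, 296 and 314 CPM. Each library labelled KO was clearly above each library labelled WT, with a log2 fold change of 0.92 (SE 0.03, adjusted p = 1.01e-10). Ntn3, a rarer netrin, had 20, 24 and 18 counts against 76, 99 and 94, at 1.93 (SE 0.19, adjusted p = 2.18e-06). It shares 1.74% of its exon bases with Tbc1d24 on the same strand. Ntn4, a netrin of basement membranes, had 76.7, 81.8 and 84.2 CPM against 77.0, 79.8 and 80.0 CPM, with overlap and a log2 fold change of -0.04 (95% confidence interval -0.12 to 0.05). Per kilobase, Unc5b was the top member in both groups, at 44.7% and 64.7% of the family, and Ntn1 fell from 17.2% to 6.52%.

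**Figure D2:**
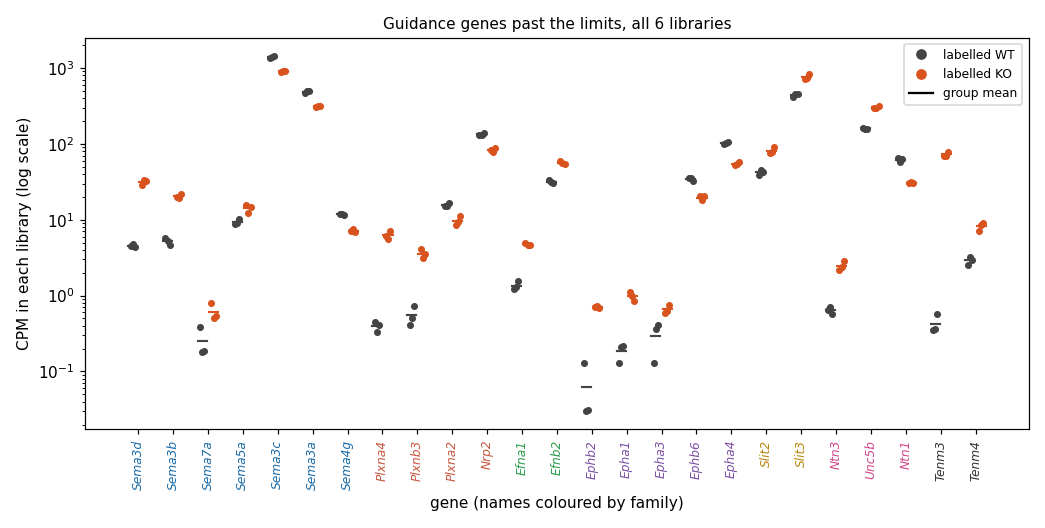
CPM (log axis) of the 25 called guidance genes in each of the 6 libraries, grouped by family, with dots for libraries and lines for group means. The genes were drawn because they were called in these same libraries, which largely sets their lack of overlap in advance. Groups do not overlap for any gene drawn, nor for 64.2% of all genes tested. The members with the largest rises lie low in the labelled WT libraries, with Tenm3 between 0.351 and 0.564 CPM and Ephb2 at 1 to 4 counts.

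The levels per kilobase set these changes in order. The highest guidance gene in the labelled WT libraries was Sema3c at 197 ± 7.59 CPM per kilobase, followed by Plxnb2 at 145 ± 1.84, Plxna1 at 97.6 ± 2.24 and Slit3 at 72.6 ± 4.28. In the libraries labelled KO the order was Plxnb2 at 140 ± 4.14, Sema3c at 128 ± 3.06, Slit3 at 125 ± 9.02 and Plxna1 at 89.2 ± 6.63 (SD, n = 3 each). Sema3c and Slit3 did not differ beyond their spread there. Tenm3, at 0.0415 ± 0.0118, was among the lowest in the labelled WT libraries, and at 7.08 ± 0.519 it was close to Nrp2 (6.97 ± 0.432) and Epha4 (6.84 ± 0.254) in the labelled KO libraries. Most of the large relative rises therefore ended at levels below those of the abundant members.

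**Figure D3:**
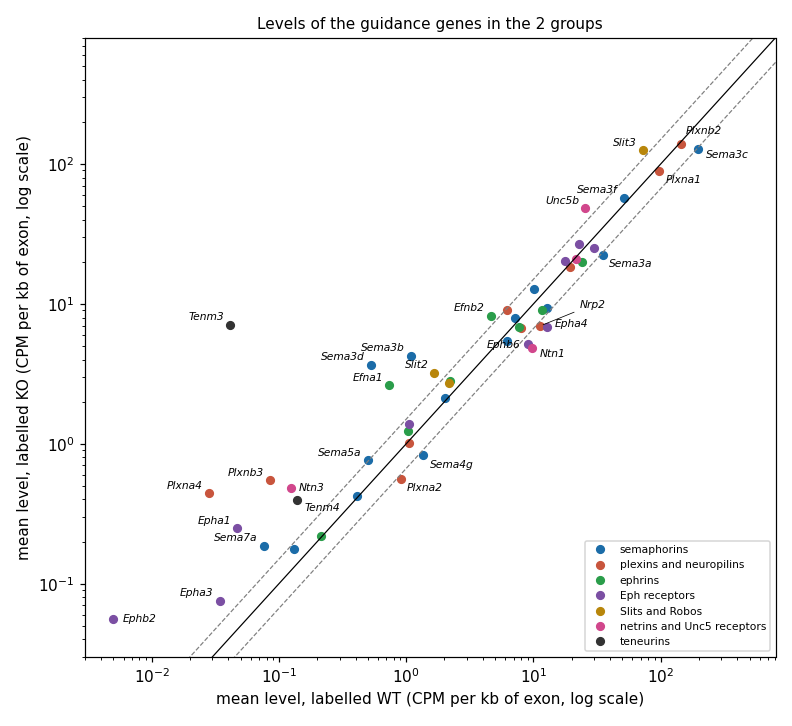
Mean level per kilobase of exon (CPM per kb, both axes log) of each guidance gene in the labelled WT libraries and labelled KO, coloured by family, with equality as a solid line and 1.5-fold as dashed lines. Sema4f, with no count in the labelled WT libraries, is not drawn, and called genes and the highest ones are named.

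Several guidance genes with another guidance gene on the same chromosome were called differently from the nearest of them. On chromosome 5, Sema3d (higher) is followed after 536.5 kb by Sema3a (lower), after a further 422.7 kb by Sema3e (not called) and after 3.32 Mb by Sema3c (lower), by GENCODE M21 positions on GRCm38. On chromosome 3, Efna1 (higher) lies 32.8 kb from Efna3 and Efna3 10.4 kb from Efna4, neither of which was called. On chromosome 9, Sema3b (higher) lies 72.3 kb from Sema3f (not called). On chromosome 6, Ephb6 (lower) and Epha1 (higher) are 738 kb apart, and on the X chromosome Plxnb3 (higher) and Plxna3 (not called) are 557 kb apart.

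A further 5 rows carry no symbol in the table but are members by their GENCODE M21 name. Sema3g, a secreted semaphorin, had 41, 45 and 33 counts in the labelled WT libraries and 271, 267 and 215 in the labelled KO libraries, a log2 fold change of 2.47 (SE 0.14, adjusted p = 9.72e-09). Slit1 had 3, 2 and 2 counts against 21, 24 and 19, a ratio of the summed counts of 8.04 (exact 95% counting interval 3.68 to 20.8), and was called as well. Epha8 had 1, 0 and 0 counts against 9, 19 and 10 and was not tested, with a ratio of 33.4 (interval 5.64 to 1353). Robo3 (-0.05, adjusted p = 0.898) and Unc5c (-0.07, adjusted p = 0.826) were tested and not called. With these rows added, 27 of 55 tested genes were called, 19 higher and 8 lower.

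Genes that work with these families but belong to none of them were read from a list of partner receptors, adaptors and cytoskeletal transducers. Of 62 tested, 16 were called, or 25.8%, against 17.7% of all genes, and 11 were higher and 5 lower. Under upper-quartile scaling or library totals alone the split was 12 higher and 2 lower. The median log2 fold change of the list was 0.02, also with the near-absent members set at their lower bound.

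Partners called higher included several surface proteins. Flrt1, an adhesion protein that binds latrophilins and Unc5 receptors, had 0, 0 and 1 counts in the labelled WT libraries and 78, 85 and 93 in the labelled KO libraries, a ratio of 225 (exact 95% counting interval 40.02 to 8921). Chl1, an adhesion protein of the L1 family, had 4, 3 and 1 counts against 165, 148 and 148, at 5.61 (SE 0.29, adjusted p = 5.23e-09). Tiam1, an exchange factor for Rac, had 2.30, 2.36 and 2.04 CPM against 58.1, 59.6 and 67.3 CPM, at 4.78 (SE 0.09, adjusted p = 2.91e-13). All 3 were low in every library labelled WT and higher in every library labelled KO. Dpysl5, of the collapsin response mediator family, had 20, 29 and 29 counts against 180, 210 and 191, at 2.71 (SE 0.15, adjusted p = 1.05e-08). Also called higher were Vav3 (2.22), Rnd1 (1.38), Ablim3 (1.28), Srgap3 (1.04), Adgrl1 (0.74) and Neo1 (0.73). Adgrl1 is a latrophilin and so a receptor of teneurins, Neo1 is neogenin, a netrin receptor, and Srgap3 acts downstream of Robos.

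Partners called lower were mostly on the side of the cytoskeleton. Myl9, a myosin light chain, had 41.4, 39.7 and 35.1 CPM in the labelled WT libraries and 8.50, 7.18 and 8.33 CPM in the labelled KO libraries. It was lower in every library labelled KO, at -2.28 (SE 0.08, adjusted p = 9.31e-11). Mical1, an enzyme that binds plexins and oxidises actin, had 72.1, 71.4 and 67.7 CPM against 38.4, 37.7 and 35.2 CPM, at -0.92 (SE 0.04, adjusted p = 1.74e-09). Rgmb, a ligand of neogenin, had 79.4, 75.8 and 77.7 CPM against 51.3, 49.8 and 50.6 CPM, at -0.62 (SE 0.03, adjusted p = 1.01e-08). Mical3 (-0.61) and Dpysl3 (-0.60) were, like Rgmb, at the edge of the fold limit. Under upper-quartile scaling Rgmb was at -0.56, Mical3 at -0.55 and Dpysl3 at -0.54, and under library totals alone at -0.58, -0.57 and -0.56, and none of the 3 was called. Mical3 was not called either without WT replicate 3, KO replicate 1 or KO replicate 2 (-0.58 to -0.57), nor Dpysl3 without WT replicate 1 (-0.55) or KO replicate 2 (-0.58). Dcc, the attractive netrin receptor, was not analysed here. Of the small GTPases on which these pathways converge, Rhoa (0.19), Rac1 (0.04) and Cdc42 (-0.09) were not called.

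**Figure D4:**
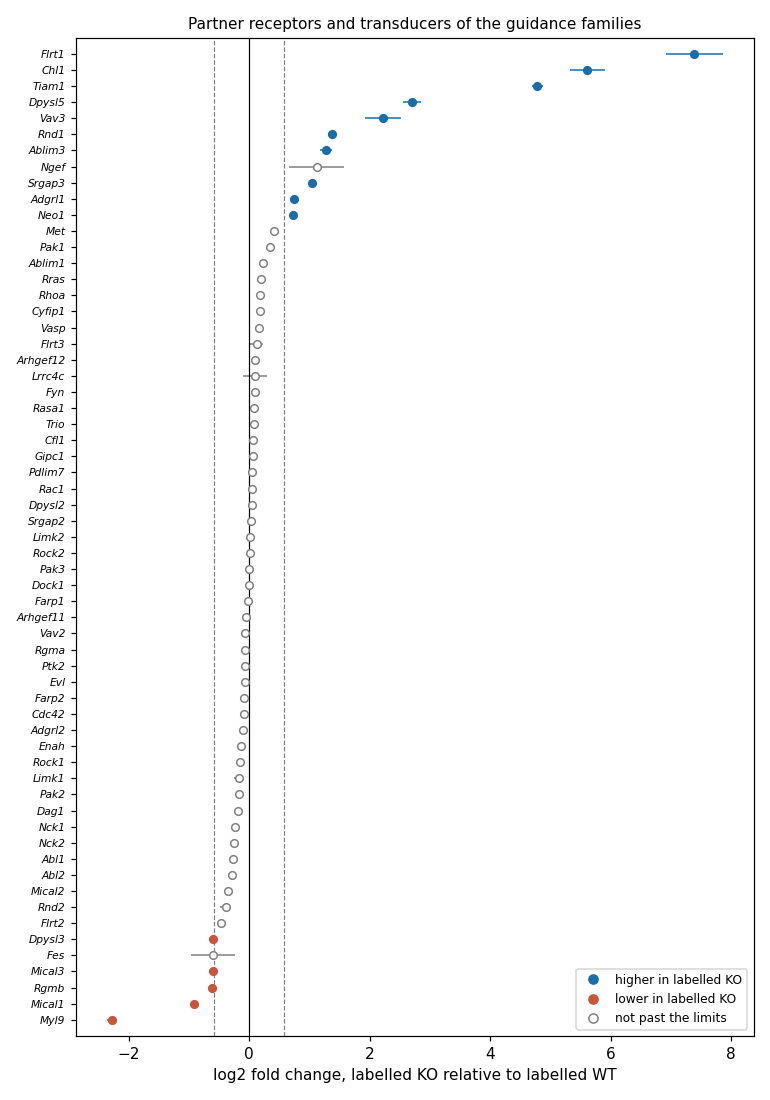
Log2 fold change of 61 of the 62 tested partner genes, labelled KO relative to labelled WT, with bars of 1 standard error. Filled points are genes called higher or lower, and most of the list lies between the dashed lines that mark 1.5-fold.

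Markers of other cell types moved between the same groups. Of 10 mesothelial markers 7 were analysed and all 7 were higher, with a summed level of 24.5 to 27.7 CPM in the labelled WT libraries and 357 to 362 CPM in the labelled KO libraries. Msln, which defines mesothelium, went from 2.37 to 166 CPM. Of 10 fibroblast markers 8 were analysed and 4 were lower, from a sum of 44820 to 47240 CPM down to 36780 to 38530 CPM, with Col1a1 not called and Thy1 near 0. Epithelial markers (5 of 10 analysed, 3 higher) summed to 20.2 to 22.7 CPM and 44.1 to 45.6 CPM, with Krt8 near 0. The largest part of this rise was Krt7, from 4.38 to 23.1 CPM, while Sox9 went the other way, from 8.51 to 6.03 CPM, without being called. Endothelial markers (2 of 10 analysed, 1 higher) summed to 1.28 to 1.69 CPM and 4.24 to 4.66 CPM, and neuronal markers (3 of 10 analysed, 1 higher) to 4.29 to 5.84 CPM and 9.48 to 12.4 CPM. Schwann and glial markers (6 of 10 analysed, 1 higher) were mostly Ncam1, at 120 to 127 CPM and 102 to 115 CPM. Of mural markers 4 of 10 were analysed with 1 higher, and of macrophage markers 6 of 10 with none called. The part of these markers in the guidance results, Tenm3, Sema3d and Plxna4 included, was not tested, and fewer cells of a type and less RNA per cell cannot be told apart in such libraries.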

How the data were processed

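RNAseq of 6 poly-A libraries of immortalized pancreatic fibroblasts was analysed, 3 labelled WT and 3 labelled KO, grouped by the genotype label alone. The authors deposited raw counts of reads per gene, and log2 CPM values, in which 0.5 is added to each count and 1 factor scales each library. Per the labels' processing notes the tools were STAR 2.7.2b, featureCounts and limma on GRCm38.p6. The strand setting, the annotation release and the treatment of reads shared by paralogs are not given in the sources used here. Genes overlapping on the opposite strand, as Efna3, Epha1, Plxna1 and Sema4c do, may share reads.

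Counts were fitted with edgeR 4.0.16 (limma 3.58.1, R 4.3.3) with TMM factors (also used for CPM), filterByExpr and the quasi-likelihood F test, over 14289 of 14831 genes. Calls needed an adjusted p (Benjamini-Hochberg) under 0.05 and 1.5-fold. The standard error is the log2 fold change divided by the root of F. The smallest two-sided p that exact permutation of 3 against 3 libraries allows is 0.1. Members, lists and limits were chosen with earlier results of these data known. Genes were given by library if they were called with at least 20 counts in each library of the higher group, up to 4 per direction and family, or were the family's most abundant member per kilobase. Sema4f, Sema7a, Nrp1, Robo1, Ntn4, Gli1 and Ptch1 are shown outside that rule, chosen after their values were seen. Of the partner genes, 1 is in the counts but is not reported here. Gene lengths and positions come from GENCODE M21, which matched 14822 identifiers, and promoter windows from RefSeq (GRCm38.p6). For genes with counts in the libraries labelled WT but at most 3 in each, ratios of summed counts carry exact binomial 95% intervals that cover counting error only. The fit was tested on simulated data, no pair of libraries agreed within sampling noise, and all 6 were kept.

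Alternatives were RLE, upper-quartile and total scaling, other count filters and limits, DESeq2 1.42.0, limma (on deposited log2 values, and with voom from counts) and leaving out each library. Adding rows named by the annotation was chosen after seeing the data. So was keeping only members with at least 20 counts in each library of the higher group.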

Additional observations from a re-analysis of the deposited data

How the results depend on the processing

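Calls rest mainly on the fold limit. Without it, 8391 of all genes were called (4277 higher, 4114 lower), 42 guidance genes (17 lower) and 38 partners (20 higher, 18 lower), with 11 semaphorins, 8 plexins and neuropilins, 6 ephrins and 9 Eph receptors. At 2-fold, 1456 of all genes were called (1052 higher, 404 lower), 13 guidance genes (1 lower) and 10 partners (1 lower), with 3 semaphorins, 2 plexins and neuropilins, 1 ephrin, 3 Eph receptors and 0 Slits and Robos. With at least 10 counts in every library, 7 partners were called higher and 2 Eph receptors were called, because that filter removes genes near 0 in the libraries labelled WT. With upper-quartile scaling or library totals alone, 2 partners were called lower, since Rgmb, Mical3 and Dpysl3 fell short of 1.5-fold. Leaving out each library gave 24 to 26 guidance genes and 3 to 5 partners called lower, with the 3 found without KO replicate 2.

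Under RLE factors, library totals, no filter, DESeq2 and both limma fits, all 51 guidance genes kept their call, and those called kept their direction. Epha3 was not called at an adjusted p under 0.01. No called guidance gene reversed under any alternative run, and the direction of genes not called was not checked. The median log2 fold change of all genes was at most 0.0588 under any scaling, against 0.0020 as reported. Of the 49 members with at least 20 counts in each library of the higher group, 24 were called. That limit keeps genes near 0 in the libraries labelled WT. Depth limits Ephb2, Epha1, Epha3, Sema7a and Sema4f most. No paired analysis was possible because the labels give the libraries no shared replicate numbers.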
